A study of Arabidopsis thaliana with 2 samples.

Results

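Suberin is the waxy polyester that lines the endodermis of the root, and the enzymes that build it were described here in 9 genes chosen by locus: CYP86A1, CYP86B1, KCS2, KCS20, FAR1, FAR4, FAR5, GPAT5 and ASFT. The rule took every row whose locus was one of these, and all 9 were found among the 22937 loci of the deposited table. RNA described as from the tip of the primary root of Arabidopsis thaliana was sequenced in 2 groups with 1 library each, so nothing here has a replicate check. The protocol also names shoots beside roots. Col is the Columbia accession, and atphb3 is a mutant named for PROHIBITIN 3 (PHB3), which scaffolds the mitochondrial inner membrane and whose allele the labels do not give. Both groups were untreated and shared 1 regime, with seed chilled for 3 days at 4 °C on Murashige and Skoog medium, then grown at 20 °C in days of 16 h light. The seedlings' age and the time of harvest were not given. The PHB3 locus (AT5G40770) drew 915 and 863 reads (ratio 0.952, 0.866 to 1.05) and so does not check the label, for which reason the mutant's library is called "the library labelled atphb3". The libraries held 7451022 and 7384348 assigned reads, with one read worth 0.134 and 0.135 CPM (reads scaled to the column total).

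Suberin monomers are fatty acids that are lengthened, oxidised or reduced in the endoplasmic reticulum, joined to glycerol and ferulate, and exported to the wall. KCS2 and KCS20 are condensing enzymes that lengthen the chains. CYP86A1 hydroxylates the far end of long chains and CYP86B1 that of very long ones. FAR5, FAR4 and FAR1 reduce acyl chains of increasing length to primary alcohols. GPAT5 transfers acyl groups to glycerol 3-phosphate, and ASFT attaches ferulate to hydroxy acids and alcohols. In the root the polymer is laid down in the endodermis behind the tip and later in the periderm, where it limits the passage of water and ions.

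KCS2 and KCS20 are the closest of the related pairs compared among the 9 genes, so their sequences decide how far reads of the one can be told from reads of the other. Their coding sequences (1587 and 1590 bases) were 80.7% identical, and the longest run of identical bases that the pair shared was 53. The stretch around that run is shown for both, read from TAIR10.1 along the coding strand, at chr1:1119968-1120110 (minus strand) and chr5:17588250-17588392 (plus strand). Capitals mark the bases that differ between them.
KCS2: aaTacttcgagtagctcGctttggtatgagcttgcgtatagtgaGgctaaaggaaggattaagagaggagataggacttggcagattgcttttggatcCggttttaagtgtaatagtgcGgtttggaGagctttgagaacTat
KCS20: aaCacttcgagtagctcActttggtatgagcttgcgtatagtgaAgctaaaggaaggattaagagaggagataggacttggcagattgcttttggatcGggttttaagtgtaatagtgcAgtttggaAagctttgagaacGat
Of the 143 aligned bases 7 differed, and they lay on both sides of the shared run. The reductases were less alike, with 76.7% identity and a longest shared run of 28 bases for FAR1 and FAR4, 71.9% and 23 bases for FAR1 and FAR5, and 73.0% and 17 bases for FAR4 and FAR5. CYP86A1 and CYP86B1 were 55.0% identical and shared no run beyond 11 bases. Beyond the 9 genes, the longest run shared with another coding sequence was 82 bases for FAR1, with AT5G22505 on its opposite strand, and 44 bases for GPAT5, with AT3G11325. FAR4 and FAR5 shared runs of 36 and 35 bases with FAR8, a reductase without listed reads. KCS2 and KCS20 shared runs of 20 or more bases with 8 and 9 genes, each other included. ASFT shared runs of 20 or more bases with 16 genes, the longest being 22 bases, and CYP86A1 shared none of that length. No source used here gives the read length.

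The suberin synthesis genes did not differ as a block between the libraries. KCS2, ASFT and GPAT5 were 2-fold or more higher in the library labelled atphb3, FAR1 was 3.57-fold lower, and the other 5 lay within 2-fold. The share of measured loci at least 2-fold higher was 9.77%, and that at least 2-fold lower was 10.2%, where a measured locus had 50 or more reads in at least 1 library. All 9 genes were measured by this rule, although FAR4 and ASFT reached 50 reads in the library labelled atphb3 only. Of the 9 genes, 7 had a ratio above 1 and 2 a ratio below 1, each with its counting interval on that side, and among all measured loci the interval lay above 1 in 37.7% and below 1 in 30.1%. At a limit of 1.5-fold 7 were higher and 1 lower, beside 22.0% and 18.4% of measured loci. At 4-fold 1 was higher and 0 lower, beside 2.36% and 3.02%. The interval lay wholly beyond 2-fold on the higher side in 2 (KCS2 and ASFT) and on the lower side in 1 (FAR1), beside 5.34% and 6.38%. The median log2 ratio of the 9 genes was 0.74, beside 0.08 over all measured loci. Ratios here are of CPM, in the library labelled atphb3 over Col, with a 95% exact (Clopper-Pearson) interval that covers counting error only and compares the libraries, not the genotypes. In bulk RNA, a changed number of suberising cells and a changed amount of RNA per cell cannot be told apart.

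**Figure D1:**
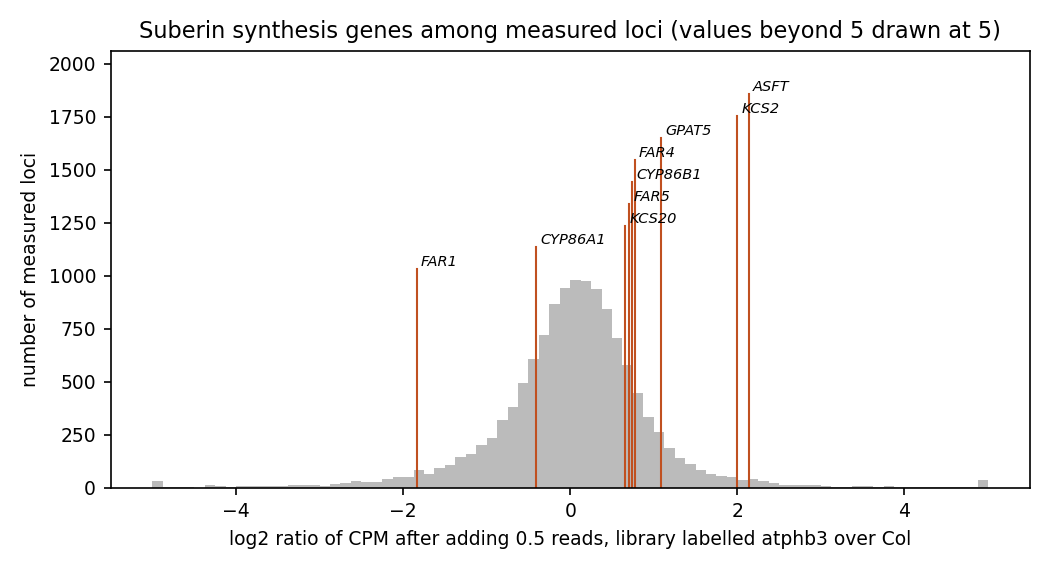
Histogram of the log2 ratio (library labelled atphb3 over Col, x axis) of all 12931 measured loci, with the number of loci on the y axis and a vertical line at the value of each suberin synthesis gene. FAR1 lies in the lower tail, KCS2 and ASFT lie in the upper tail, and 4 genes crowd together between 0.66 and 0.77.

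The elongases were both higher, and by unequal amounts. KCS2 (AT1G04220, chromosome 1, 1119699 to 1122526, minus strand) had 1004 reads (135 CPM) in Col against 3971 (538 CPM) in the library labelled atphb3. KCS20 (AT5G43760, chromosome 5, 17585763 to 17588597, plus strand) had 1337 reads (179 CPM) and 2088 (283 CPM). KCS2 was thus 3.99-fold higher (3.72 to 4.28), and KCS20 1.58-fold higher (1.47 to 1.69). The ratio of KCS2 was 2.53 times that of KCS20, with a counting interval of 2.29 to 2.80. Per length, in reads scaled to transcript length and depth (RPKM), KCS20 stood above KCS2 in Col at 97.5 against 75.5, and below it in the library labelled atphb3 at 154 against 301. KCS2 went from 14.7% (13.8 to 15.5) of all reads on the 9 genes to 35.9% (35.0 to 36.8), with exact binomial intervals. On the opposite strand KCS2 overlaps a listed gene, AT1G04210, by 41 bases. That gene had 930 and 1018 reads. RefSeq also places a long non-coding RNA, AT1G04247, across 2302 bases of KCS2 on the opposite strand, and without a kit that marks strands in the protocols, KCS2 reads could not be separated from those of its antisense partners.

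The 2 shared subunits of the elongase complex that were analysed, which serve all very long acyl chains, were both higher. KCR1, the ketoacyl reductase, had 1323 reads in Col, 2846 reads in the library labelled atphb3 and a ratio of 2.17 (2.03 to 2.32). CER10, the enoyl reductase, had 685 and 1774 reads, a ratio of 2.61 (2.39 to 2.86). The dehydratase PAS2 was looked for but had no listed reads. Of 19 other condensing enzymes of the KCS family, 16 had listed reads and 7 were measured, and all 7 lay within 2-fold. Their median log2 ratio was 0.51 and their mean 0.24, and with no minimum of reads the median was -0.35. KCS1 and KCS9, which also act in roots, had ratios of 1.51 (1.38 to 1.65) and 1.43 (1.26 to 1.63).

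The fatty acid hydroxylases went in opposite directions and cancelled in sum. CYP86A1 (AT5G58860, chromosome 5, 23765814 to 23768049, minus strand) had 1666 reads (224 CPM) in Col against 1248 (169 CPM) in the library labelled atphb3. CYP86B1 (AT5G23190, chromosome 5, 7803141 to 7805815, minus strand) had 638 reads (85.6 CPM) and 1055 (143 CPM). CYP86A1 was 1.32-fold lower (1.23 to 1.42) and CYP86B1 1.67-fold higher (1.51 to 1.84), both within 2-fold. Their levels per length drew together, from 126 and 39.4 RPKM in Col, a 3.19-fold gap, to 95.001 and 65.7 RPKM, a 1.44-fold gap. Added up, they had 2304 and 2303 reads, a ratio of 1.01 (0.952 to 1.07). CYP86A1 held the highest level of the 9 genes in Col and the fourth in the library labelled atphb3. Of the 5 CYP86 relatives examined, 4 had listed reads and were measured, 2 of them at least 2-fold higher and 0 lower. AT5G08250, a cytochrome P450 that shares a run of 29 bases with CYP86B1, had 60 and 376 reads, a ratio of 6.32 (4.80 to 8.45). CYP86A8, a hydroxylase of cutin synthesis, had 444 and 1106 reads, a ratio of 2.51 (2.25 to 2.81).

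FAR1 was the one suberin synthesis gene at least 2-fold lower, while its relatives FAR4 and FAR5 were higher. FAR1 (AT5G22500, chromosome 5, 7470443 to 7474120, plus strand) had 797 reads (107 CPM) in Col against 221 (29.9 CPM) in the library labelled atphb3, 3.57-fold lower (3.08 to 4.17). FAR5 (AT3G44550, chromosome 3, 16138017 to 16141546, plus strand) had 995 reads (134 CPM) and 1608 (218 CPM). FAR4 (AT3G44540, chromosome 3, 16124021 to 16127954, plus strand) had 40 reads (5.37 CPM) and 68 (9.21 CPM). FAR5 was 1.63-fold higher (1.51 to 1.77), with a lower bound well clear of 1, and FAR4, with few reads, was 1.72-fold higher (1.14 to 2.60). FAR4 and FAR5 lie on the same strand with 10062 bases between their listed spans, and the ratio of FAR4 was 1.05 times that of FAR5, with an interval of 0.695 to 1.61 that held 1. The ratio of FAR5 was 5.83 times that of FAR1 (4.91 to 6.93). Their levels were far from equal, since FAR5 stood 25.7-fold above FAR4 in RPKM in Col and 24.4-fold above it in the library labelled atphb3. FAR1 and FAR5 were close in Col, at 60.2 and 79.9 RPKM, but 16.8 and 130 RPKM in the other library. All 3 reductases summed to 1832 and 1897 reads, a ratio of 1.04 (0.979 to 1.11). RefSeq places a partial protein-coding gene, AT5G22505, across 1310 bases of FAR1 on the opposite strand, which adds to the uncertainty of FAR1. Of 5 further reductases of the family only CER4, of leaf and stem wax, was measured, with 134 and 124 reads and a ratio of 0.934 (0.725 to 1.20).

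FACT, which joins caffeate to the fatty alcohols to form root waxes, was lower like FAR1. It had 1499 reads against 487 in the library labelled atphb3, 3.05-fold lower (2.75 to 3.39). The 4 further enzymes of suberin and root wax (GPAT7, KCS1, KCS9 and FACT) comprised 1 at least 2-fold higher, 1 lower and 2 within 2-fold.

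Both of the remaining transferases were higher. GPAT5 (AT3G11430, chromosome 3, 3595765 to 3597952, plus strand) had 350 reads (47.0 CPM) in Col against 736 (99.7 CPM) in the library labelled atphb3, 2.12-fold higher (1.87 to 2.42). Its interval reached below 2. GPAT7, a close relative linked to wound suberin, had 109 and 342 reads, a ratio of 3.17 (2.54 to 3.96). Of 7 GPAT relatives 6 were measured, with 4 at least 2-fold higher and 1 lower. GPAT2 (16 and 51 reads), one of the 4, was measured through the library labelled atphb3 alone, and GPAT1 (37 and 11 reads) was not measured. With no minimum of reads 2 were at least 2-fold lower. GPAT4 and GPAT8 are paired in cutin synthesis and lay on opposite sides, at 3.52-fold higher (3.24 to 3.83) and 2.52-fold lower (1.98 to 3.23). ASFT (AT5G41040, chromosome 5, 16431374 to 16433305, plus strand) had 17 reads (2.28 CPM) in Col against 76 (10.3 CPM) in the library labelled atphb3. The difference of 4.51-fold had a wide interval (2.64 to 8.14) because of the few reads in Col. ASFT has 2 listed transcripts, and the second held 1 read in each library.

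Most phenylpropanoid genes that supply ferulate lay within 2-fold. Of 10 measured, 9 lay within 2-fold and 1 below it. The median of their log2 ratios was 0.07 and the mean -0.14. The one lower gene was REF1, an aldehyde dehydrogenase that makes ferulate and sinapate, with 5140 and 2046 reads (ratio 0.402, 0.381 to 0.423). It was named after its values were seen, as the single gene of its list outside 2-fold. PAL1 and C4H, which catalyse the entry steps of the pathway, had ratios of 1.06 (1.02 to 1.10) and 1.33 (1.28 to 1.38). PAL2 and PAL4, which share the first step with PAL1 and were named after their values were seen, had ratios below 1. PAL2 had 4570 and 2716 reads (ratio 0.600, 0.572 to 0.629), and PAL4 had 1298 and 1020 (ratio 0.793, 0.730 to 0.861).

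**Figure D2:**
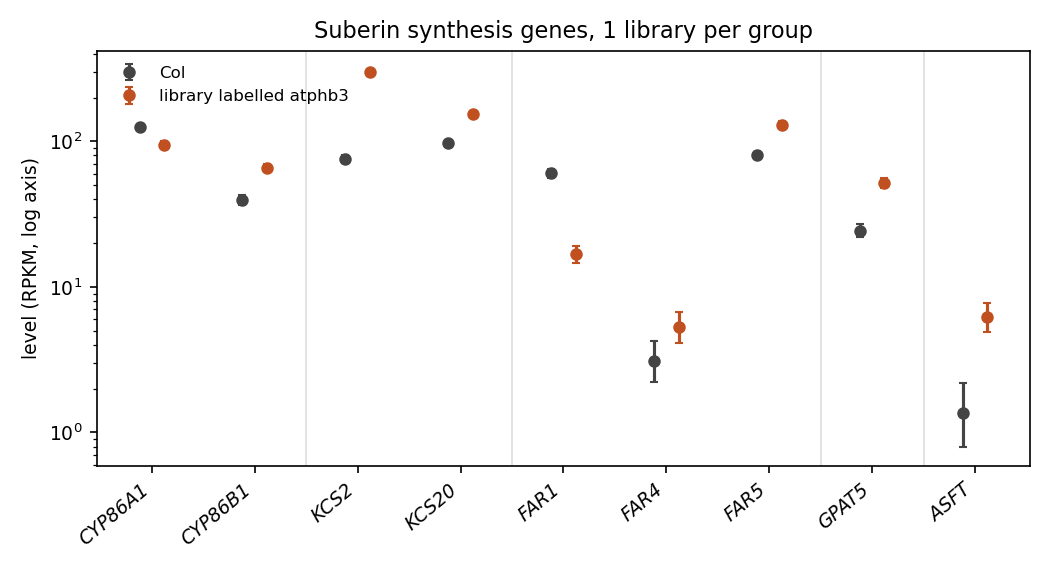
Level of each suberin synthesis gene in RPKM (y axis, log scale) in both libraries (Col, and that labelled atphb3), grouped by enzyme class from hydroxylases to the feruloyltransferase. Each point is 1 library and the bars are 95% exact Poisson intervals of the reads. FAR1 and CYP86A1 are the 2 genes with the lower point in the library labelled atphb3.

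Per length, the order of the 9 genes changed between the libraries. In Col it ran from CYP86A1 (126 RPKM) through KCS20 (97.5), FAR5 (79.9), KCS2 (75.5), FAR1 (60.2), CYP86B1 (39.4), GPAT5 (24.4) and FAR4 (3.11) to ASFT (1.37). FAR5 and KCS2 were the only neighbours in that order whose counting intervals overlapped, at 75.0 to 85.0 and 70.9 to 80.4 RPKM. In the library labelled atphb3 the order was KCS2 (301 RPKM), KCS20 (154), FAR5 (130), CYP86A1 (95.001), CYP86B1 (65.7), GPAT5 (51.7), FAR1 (16.8), ASFT (6.17) and FAR4 (5.34). There only ASFT and FAR4 overlapped, at 4.86 to 7.72 and 4.15 to 6.77 RPKM. KCS2 and FAR1 lay 1.26-fold apart in Col and 17.9-fold apart in the library labelled atphb3. Together the 9 genes had 6844 reads (919 CPM) in Col against 11071 (1499 CPM) in the library labelled atphb3, and the ratio was 1.63 (1.58 to 1.68). KCS2 weighed heavily in this sum, and without it the ratio was 1.23 (1.18 to 1.27).

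Transporters listed here for suberin export, a role that was not tested, also differed unevenly. Of 5 half-size ABCG transporters examined, 4 were measured, and past 2-fold 2 stood higher and 0 lower. Their median log2 ratio was 1.13 and their mean 0.78, and with no minimum of reads the median was 0.75. LTPG5, a lipid transfer protein, was taken out of this list after values were seen. With it kept the median was 1.52. ABCG6 had 1190 and 3759 reads (ratio 3.19, 2.99 to 3.40), and ABCG16 had 110 and 313 (ratio 2.87, 2.30 to 3.60). ABCG20, which acts with ABCG6 and ABCG2 in the root suberin barrier, was 1.77-fold lower (1.59 to 1.96) on 1030 and 578 reads. ABCG1 had 361 and 603 reads, a ratio of 1.69 (1.48 to 1.93). ABCG2, with 35 and 23 reads, was not measured.

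Of the transcription factors that activate suberin genes, MYB41 alone among those measured was at least 2-fold apart. Among 9 factors examined 8 were measured, and 7 of these lay within 2-fold, with a median log2 ratio of 0.36. MYB41 had 25 reads against 301 in the library labelled atphb3 (ratio 12.1, 8.07 to 19.1), and it was measured through the latter alone. MYB107, which acts in the seed coat, had 117 and 186 reads, a ratio of 1.60 (1.27 to 2.04). MYB92 and ANAC058 had ratios of 1.23 (1.09 to 1.38) and 1.26 (1.08 to 1.48). MYB53 and MYB39, on 52 and 67 and on 37 and 53 reads, had intervals that held 1. MYB93 was 1.52-fold lower (1.30 to 1.78) and ANAC046 1.64-fold lower (1.40 to 1.92). MYB9 had 11 and 9 reads.

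**Figure D3:**
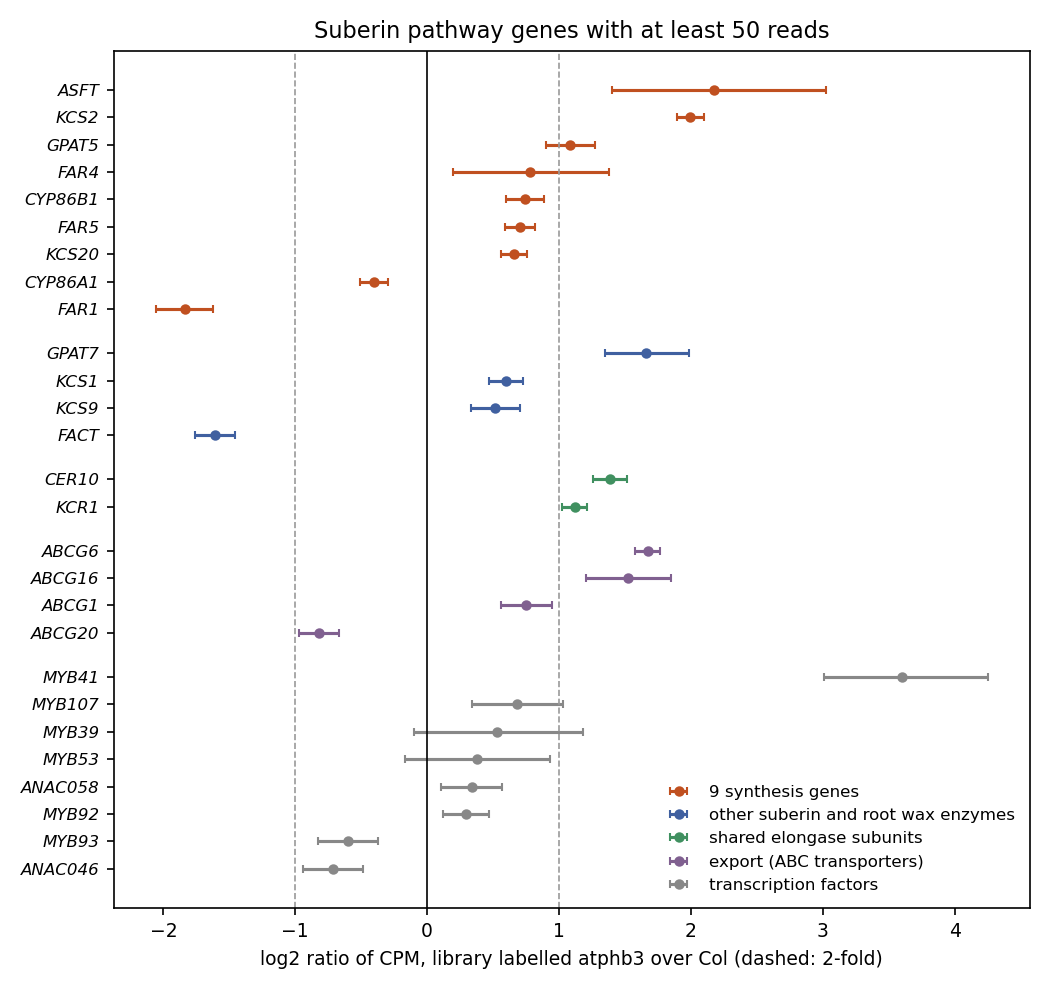
Log2 ratio of CPM, library labelled atphb3 over Col (x axis), for each measured gene of suberin synthesis, further suberin and root wax enzymes, shared elongase subunits, export and transcription factors, sorted within its list. Bars are 95% exact counting intervals and dashed lines mark 2-fold. Each list except the elongase subunits holds genes on both sides of 0, with FAR1 and FACT lowest and MYB41 highest.

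Genes of the Casparian strip and the endodermis, the tissue that deposits suberin in the young root, showed no matching difference. Of 11 examined 10 were measured, 9 of them within 2-fold, with a median log2 ratio of -0.10, a summed level of 836 CPM in Col and 826 CPM in the library labelled atphb3, and none at 0 reads in either. CASP1, a scaffold protein of the strip, had 1106 and 1062 reads, a ratio of 0.969 (0.890 to 1.05), and PER64, a peroxidase of the strip, had a ratio of 0.812 (0.747 to 0.883). SCR, an endodermal fate regulator also expressed in the stem cell niche and named after its value was seen, had a ratio of 2.02 (1.82 to 2.26) and lay within 2-fold under TMM or median of ratios scaling. The measured markers showed endodermis in both libraries, while ESB1, the gene not measured, had only 2 and 6 reads.

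Markers of other tissues did differ beside the suberin genes. All 6 root hair markers were measured and 4 were at least 2-fold higher, with sums of 235 and 537 CPM. Of 4 meristem markers 3 were at least 2-fold higher, with sums of 32.1 and 82.7 CPM. One of the 3, WOX5 (24 and 82 reads), was measured through the library labelled atphb3 alone, and with a minimum of 200 reads 1 marker was past 2-fold. Of 3 root cap markers 2 were measured and 1 was at least 2-fold higher, with sums of 14.9 and 30.9 CPM. That one, BRN2 (40 and 106 reads), was also measured through the library labelled atphb3 alone. Of 5 phloem markers 3 were measured, all 3 at least 2-fold lower, with sums of 397 and 96.6 CPM. Of 6 xylem markers, all measured, 1 was at least 2-fold lower and 5 lay within 2-fold, with sums of 638 and 385 CPM. The 4 markers of green tissue were all at least 2-fold lower, from 236 to 43.7 CPM, and the protocol names shoots beside roots in one sentence. LHB1B1 (455 and 2 reads), CAB3 (432 and 4) and RBCS1A (179 and 19) were measured through Col alone. PSAF (691 and 298 reads) held 40.4 of the 43.7 CPM in the library labelled atphb3. None of these markers was at 0 reads in either library, but those not measured had few. They were APL (4 and 1 reads) and AHA3 (7 and 10) of the phloem and SMB (2 and 1) of the root cap. The ratio of AHA3 was 1.44, with an interval of 0.495 to 4.46 that held 1. The part of these other tissues in the values of the suberin genes was not tested.

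**Figure D4:**
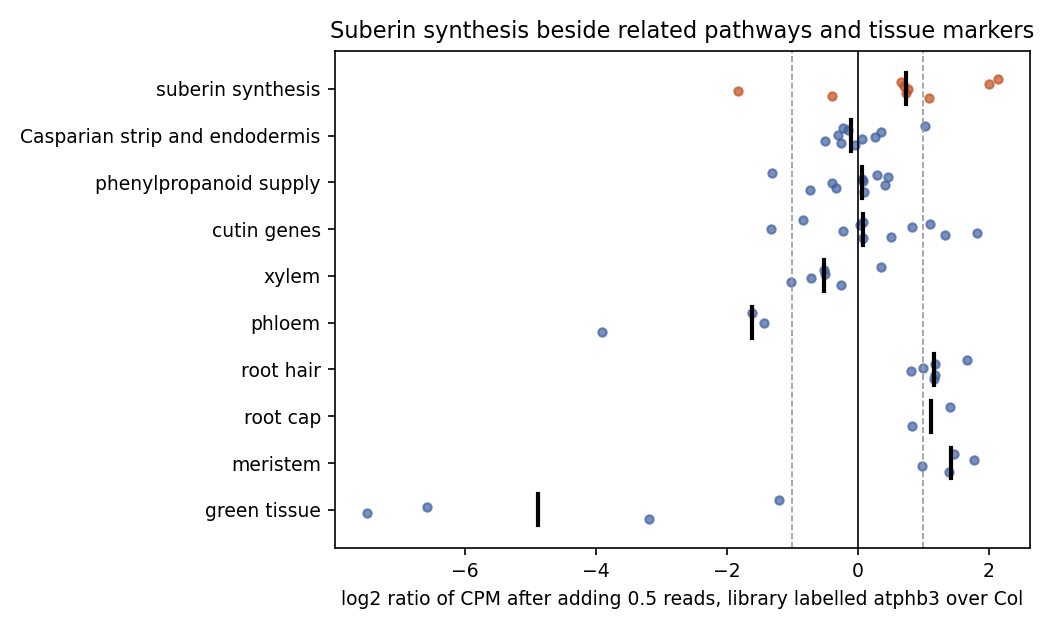
Log2 ratio of CPM (x axis), library labelled atphb3 over Col, for the measured genes of suberin synthesis, related pathways and tissue markers. Each point is a gene, the black bar is the median of its list, and dashed lines mark 2-fold. The endodermal genes centre on -0.10, while root hair and meristem markers lie above 0 and phloem and green tissue markers below it.

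Abscisic acid is known to raise suberin deposition, and its response genes were counted beside the synthesis genes. Of 9 examined 5 were measured, 4 of them within 2-fold and 1 below it, and the median of their log2 ratios was -0.06. That median was 0.35 with no minimum of reads and 0.26 with a minimum of 200 reads. The lower gene was KIN1, a cold and stress gene named after its values were seen, with 393 and 181 reads (ratio 0.465, 0.388 to 0.556). RD29A, a stress marker gene, had 1305 and 1152 reads, a ratio of 0.891 (0.822 to 0.965), and ABI1, a phosphatase of the pathway, had a ratio of 1.61 (1.47 to 1.76). Cutin genes build the polyester of the shoot surface with sister enzymes. Of 12 examined 11 were measured, with 3 higher and 1 lower past 2-fold and their median at 0.08.

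Promoters are shown for the genes at the extremes, FAR1 (lowest ratio) and KCS2 and ASFT (highest), to set their sequences beside the opposite direction of their reads. Each runs from 250 bases before to 50 bases after the start of the gene in RefSeq on TAIR10.1, on the gene's own strand. These are chr5:7470078-7470377 (plus) for FAR1, chr1:1122737-1123036 (minus) for KCS2 and chr5:16431054-16431353 (plus) for ASFT. RefSeq starts FAR1, KCS2 and ASFT upstream of their listed transcripts, so a distance from the gene start is not one from the listed transcript. Capitals mark a match to a searched motif.
FAR1: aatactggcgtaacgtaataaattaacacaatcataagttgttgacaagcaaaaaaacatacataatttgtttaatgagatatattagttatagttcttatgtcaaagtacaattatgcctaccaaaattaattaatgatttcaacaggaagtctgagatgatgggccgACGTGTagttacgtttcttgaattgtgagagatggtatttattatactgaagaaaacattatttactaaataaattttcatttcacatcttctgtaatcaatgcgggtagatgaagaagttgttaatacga
KCS2: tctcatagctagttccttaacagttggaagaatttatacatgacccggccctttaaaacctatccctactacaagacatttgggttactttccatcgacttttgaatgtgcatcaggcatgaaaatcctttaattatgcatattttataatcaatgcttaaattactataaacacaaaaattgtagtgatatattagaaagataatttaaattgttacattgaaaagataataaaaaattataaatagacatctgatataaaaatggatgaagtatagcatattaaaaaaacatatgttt
ASFT: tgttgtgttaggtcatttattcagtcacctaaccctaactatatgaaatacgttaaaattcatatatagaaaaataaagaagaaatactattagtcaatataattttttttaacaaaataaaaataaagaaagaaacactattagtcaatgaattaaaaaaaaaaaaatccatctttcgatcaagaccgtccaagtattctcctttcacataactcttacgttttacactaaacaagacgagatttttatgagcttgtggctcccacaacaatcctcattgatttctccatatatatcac
The motifs searched, on both strands, fell into 3 kinds. Words bound by MYB factors were ACCAAC with its relative ACCTAC, the AC-type word CAACCA, the core CAGTTA and also the core AACGGA. Abscisic acid response cores were ACGTGG and the related ACGTGT, and a WRKY box was TTGACC. Matches to ACCAAC and CAACCA can overlap each other. FAR1 held 1 match, ACGTGT, starting 81 bases before the gene start, a word found in 12.4% of 27443 promoters of protein-coding genes. No searched word lay in the windows of KCS2, ASFT, GPAT5, KCS20 or CYP86A1. CYP86B1 held ACCTAC, found in 5.45% of promoters, and TTGACC, found in 14.2%, which FAR4 held as well. FAR5 held CAGTTA, found in 9.34% of promoters. The word ACCAAC, in 13.8% of promoters, lay in 0 of the 9 windows, as did CAACCA (14.1%), then ACGTGG (9.85%), then AACGGA (8.01%).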

How the data were processed

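Per the labels' protocols, which also name shoots, RNA from root tips was reverse transcribed from random primers, and the libraries were run on an Illumina HiSeq. Per the file headers, the authors deposited for each of 26425 transcripts a read count and an RPKM value in each library, and their log2 ratio with a p-value and FDR. No source used here names the aligner, counter or genome build. The deposited RPKM equals the count divided by transcript length and column total, apart from counts of 0. The authors' p-values compare 1 library with 1 library, so they and the deposited log2 ratio were not used. Transcript length in bases is another value the authors deposited.

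Counts were summed to 22937 loci and scaled by the column total as CPM. Log2 ratios were taken after adding 0.5 reads. Ratios carry 95% Clopper-Pearson intervals conditional on the summed reads, and no count model was fitted, since 1 library per group leaves no error to estimate. Calculations were tested on simulated data. The members and lists were chosen with earlier results of these data known. All 9 members were named; in other lists the names were up to 4 measured genes with the largest difference past 2-fold, or, where fewer than 2 passed it, the 2 with most reads, and any measured transporter or regulator. A locus (AT3G22600) entered among the transporters as LTPG15, and called LTPG5 here, was taken out after values were seen. Sequences and gene starts came from RefSeq on TAIR10.1, in which all 9 listed spans lay inside the RefSeq locus. TMM (edgeR 4.0.16) and median of ratios scaling (DESeq2 1.42.0), the authors' RPKM, other pseudocounts, filters and fold limits were alternatives. Python 3.11.15 with scipy 1.17.1 was used. Intervals cover counting error only. Reads carried no molecular identifiers, so copied reads could not be told from separate molecules, and the intervals may be too narrow.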

Additional observations from a re-analysis of the deposited data

How the results depend on the processing

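The 9 log2 ratios kept their direction and stayed inside their counting intervals under TMM scaling, median of ratios scaling, a total over nuclear loci, a pseudocount of 2 reads and the authors' RPKM, with shifts of at most 0.10. The number of suberin synthesis genes past the limit depended on the limit. At 1.5-fold 7 were higher (22.0% of measured loci) and 1 lower (18.4%), and at 4-fold 1 was higher (2.36%) and 0 lower (3.02%), as KCS2 lay just under that limit. GPAT5, at 2.12-fold, lay just past the 2-fold limit, and with the interval wholly beyond 2-fold 2 genes were higher (5.34%) and 1 lower (6.38%). The summed ratio was 1.56 under TMM scaling, 1.91 without CYP86A1, 1.81 without FAR1 and 1.23 without KCS2. The median of the transporters was 0.75 with no minimum of reads and 1.52 with LTPG5 kept. LTPG5 was in the list as first entered. The median of 1.13 without it thus rests on a choice made after values were seen. LTPG5, a lipid transfer protein, had 1095 and 4227 reads. With no minimum of reads the median of the KCS relatives was -0.35 and that of the abscisic acid genes 0.35, both with the opposite sign. Those medians take in genes with hardly any reads, such as KCS19 (4 and 0) and RD29B and COR15A (0 and 1 each). With a minimum of 200 reads the abscisic acid median was 0.26, and that of the KCS relatives 0.52. The one endodermal gene past 2-fold, SCR, was within it under TMM and median of ratios scaling. FAR4 and ASFT, with 40 and 17 reads in Col, are limited most by depth. No paired analysis was possible because each group held 1 library.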
